A study of Mus musculus with 8 samples.

Results

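The transcripts described here are the antisense genes and the genes of the type processed transcript that were expressed in mouse embryonic stem cells (ESCs), followed through an RNA immunoprecipitation (RIP) of the translation initiation factor eIF4A2. They were chosen by gene type in GENCODE vM21, by a level of at least 1 CPM (reads scaled to the library's total on genes) in all 4 input libraries, and by leaving out *Gas5*, *Zfas1*, and the genes with symbols that start with Snhg. Of 3436 genes of these types in the deposited table, 124 met the rule, 75 annotated as antisense and 49 as processed transcripts, out of 10754 genes of any type at that level. The input levels thus chose the members, and these levels are given below as a description only. All cells were *Eif4a2* KO ESCs grown in medium with LIF and the inhibitors CHIR99021 and PD0325901 (2i). The EV cells carried an empty vector and hence no Flag-tagged protein, and the Eif4a2flag cells re-expressed Flag-tagged eIF4A2, which was the full-length isoform according to the study's methods. An input and an anti-Flag RIP of each made 4 groups of 2 libraries: Input EV, Input Eif4a2flag, RIP EV, and RIP Eif4a2flag. According to the supplement, biological replication in the RIP came from 2 clonal lines per isoform. It does not say what the EV replicates were. P-values thus cover only how far libraries of a group differed. By that account the difference lay between clones in the Eif4a2flag groups, and in the EV groups it can be technical.

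An antisense transcript is read from the DNA strand opposite to another gene, and often overlaps that gene's exons or starts beside its promoter. The gene type processed transcript collects spliced RNAs without an annotated open reading frame that fit no narrower type. Several of the best known nuclear RNAs fall in these types, such as the imprinted *Kcnq1ot1* and *Rian* and the *Xist* antagonist *Tsix*, along with host genes whose introns release small nucleolar RNAs (snoRNAs). eIF4A2 is a DEAD-box RNA helicase that acts on mRNA in the cytoplasm, so a RIP against it asks which of these RNAs are recovered beside mRNAs.

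The label noncoding held only in part. In RefSeq, which held 101 of them, 85 were long noncoding RNAs and 11 were protein-coding genes, among them *Cct6a* (a subunit of the CCT chaperonin), *Ifi30* (a lysosomal thiol reductase), and *2310009A05Rik*, named *Pigbos1* there, which encodes a mitochondrial microprotein. *1810032O08Rik* is *Snhg16* in RefSeq and was kept by the rule because of its older symbol. The 124 transcripts are therefore called by their gene types in what follows.

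Reads on genes came to 2044853 in the smallest library (RIP EV replicate 1) and to 11206420 in the largest (RIP Eif4a2flag replicate 1), and all CPM values are on these totals. The antisense and processed transcripts made up 0.303% ± 0.0728 of gene reads in Input EV, 0.247% ± 0.0305 in Input Eif4a2flag, 0.428% ± 0.0178 in RIP EV, and 0.260% ± 0.00371 in RIP Eif4a2flag (SD, n = 2 each). The RIP EV libraries stood apart. Only 19.9% and 29.9% of their reads lay on genes, and 45.8% and 29.7% on no annotated feature. In RIP Eif4a2flag 68.2% and 68.1% lay on genes, and 3.30% and 4.13% on no feature. The RIP EV replicates varied by a biological coefficient of variation of 171%, against 23.1% to 30.1% in the other groups. In them 83 and 62 of the 124 transcripts had no read, against 1 and 5 in RIP Eif4a2flag. The 10 ESC markers summed to 1468 to 3217 CPM in each library. Among them only *Pou5f1* was at 0 in both RIP EV libraries, and it had 5.78 to 19.7 CPM in the inputs. Markers of extraembryonic endoderm (4 genes) summed to at most 2.32 CPM and those of fibroblast feeders (5 genes) to at most 6.87 CPM, with *Postn* and *Lum* at 0 throughout. The 4 markers of primed or differentiating cells summed to 0 to 61.6 CPM, the highest sum being *Pou3f1* alone in RIP EV replicate 1. A field of the label of RIP Eif4a2flag replicate 2 names Eif4a3, and its other fields name Eif4a2.

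Sequences are shown for transcripts that fell or rose in the RIP, because the libraries were primed with oligo(dT) and sequenced near the 3′ end, so that stretches of A and poly(A) signals bear on what is counted. All are windows of 30 bases from the longest GENCODE transcript, 5′ to 3′, checked against GRCm38 (mm10). In the first set, from transcripts that were lower in the RIP than in the input, capitals mark the longest run of A inside the annotated transcript.
Rian: attgctcAAAAAAAAAAAAAAAccattgat
Dleu2: gtcttgggAAAAAAAAAAAAAgaaagaaag
BC024386: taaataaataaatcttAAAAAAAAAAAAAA
Gm11491: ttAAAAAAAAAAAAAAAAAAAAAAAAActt
Gm26670: gtctccgAAAAAAAAAAAAAAAAgaaagaa
Gm10138: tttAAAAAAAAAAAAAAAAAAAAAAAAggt
5430405H02Rik: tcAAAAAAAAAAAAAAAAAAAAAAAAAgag
They lie at chr12:109652222-109652251 (plus strand), chr14:61627826-61627855 (minus), chr7:140907950-140907979 (plus), chr11:87126664-87126693 (minus), chr1:191989430-191989459 (minus), chr1:151343903-151343932 (minus), and chr2:156855793-156855822 (minus), all within exons. In *Dleu2* and *BC024386* the run starts 53 and 14 bases before the annotated end, and in the others 904 to 2781 bases before it. In the second set, capitals mark the poly(A) signal AATAAA nearest the annotated 3′ end of the 3 transcripts that were higher in the RIP and of 2 abundant ones that passed the test in neither direction.
2310009A05Rik: cacatagcacaaAATAAAattgtttctaaa
B230206L02Rik: cacacccacaccAATAAAtatatttctact
Sp3os: aataaataaataAATAAAgacaatggaatg
Rab10os: acagttttactcAATAAAtgagaatttcta
2410006H16Rik: atgccttttaaaAATAAAcatttgtttata
These lie at chr9:73042337-73042366, chr11:94155738-94155767, chr2:72988571-72988600, chr12:3241374-3241403, and chr11:62604773-62604802, all on the plus strand, with the signal starting 20 to 27 bases before the annotated end.

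In the inputs most of these transcripts were rare. The mean over the 4 inputs ran from 1.40 to 461 CPM with a median of 6.44 CPM, against 22.6 CPM over all expressed genes, and 83 of 124 transcripts lay below 10 CPM and 5 at or above 100 CPM. The most abundant was *Cct6a*, which had 473 and 442 CPM in EV inputs and 433 and 498 CPM in the other pair. *AA465934*, whose introns hold *Snord7*, reached 295 and 639 CPM in EV inputs, and 197 and 255 CPM in those of Eif4a2flag cells, so that its EV replicates differed more from each other than the cell lines did. *2410006H16Rik*, the host of *Snord49a*, *Snord49b*, and *Snord65*, had 154 to 234 CPM in the inputs, and *1110038B12Rik*, the host of *Snord52*, had 145 to 195 CPM. *2010204K13Rik* followed at 70.1 to 147 CPM. Among antisense transcripts, *Rab10os* led at 65.1 to 108 CPM, followed by *A330084C13Rik* at 38.3 to 149 CPM and *Rab26os*, the host of *Snord60*, at 40.7 to 71.3 CPM. The ranges of these antisense neighbours overlapped. Just inside the limit, *4930563E22Rik*, *E130307A14Rik*, and *Chrna1os* each had a lowest input of 1.08 CPM and *D030028A08Rik* and *Gm26658* of 1.12 CPM. Just outside it lay *A330009N23Rik*, *0610040B10Rik*, and *Platr14* at 0.964 CPM and *2310058D17Rik* and *1700113A16Rik* at 0.963 CPM.

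The inputs of the cell lines asked whether re-expression of eIF4A2 changed these transcripts in RNA of the lysate. In the quasi-likelihood test of edgeR, adjusted by Benjamini-Hochberg over all 10754 genes, 0 of the 124 transcripts rose and 0 fell (0.0% of all genes in either direction). At an unadjusted p under 0.05, 4 were higher and 15 lower in Input Eif4a2flag, among 402 higher and 394 lower of all genes, and DESeq2 put 0 higher and 1 lower past the adjusted threshold (0.112% and 0.0465% of all genes). The median log2 fold change was −0.30 for these transcripts and −0.01 for all genes. By CPM, 22 of the 124 lay above and 34 below both EV inputs, against 19.8% and 17.3% of all genes. *Rian* had 41.3 and 68.3 CPM in Input EV against 23.8 and 24.1 CPM in Input Eif4a2flag, and *Panct2*, an antisense transcript known from ESCs, had 3.99 and 3.74 CPM against 9.74 and 12.2 CPM. Neither pair of groups overlapped, and the adjusted p was 0.66 for both in edgeR's test.

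The RIP of Flag-eIF4A2 against its own input asked which transcripts came down with the protein in other proportions than in the lysate. Antisense and processed transcripts were more often lower than higher in the RIP. Of 124, 20 fell (16.1%, against 8.46% of all genes tested) and 3 rose (2.42%, against 8.44%), at an adjusted p of at most 0.05 in edgeR's quasi-likelihood test. The median log2 fold change was −0.37, against 0.02 over all genes. With scaling by library size alone in place of TMM, these medians became −0.06 and 0.32, a shift of all genes alike, and the split became 18 lower and 7 higher (5.27% and 18.0% of all genes). DESeq2 put 19 lower and 3 higher past its threshold (10.2% and 9.27% of all genes). By CPM without a test, both RIP libraries lay below both inputs for 40 of the 124 transcripts and above them for 37, whereas 18.7% of all genes lay below and 45.8% above. Of 75 antisense transcripts 14 fell and 1 rose (median −0.47), and of 49 processed transcripts 6 fell and 2 rose (median −0.16). Without Input Eif4a2flag replicate 2, 12 transcripts fell (9.68%), which is close to the 8.19% of all genes that fell in that fit. Without RIP Eif4a2flag replicate 1 or 2, 1 rose (0.806%, against 5.34% and 3.75% of all genes). In a fit on all 8 libraries, which shares the wide spread of RIP EV with the other groups, 0 of the 124 passed the threshold in either direction (0.0558% of all genes lower and 0.0% higher). The split was also seen at matched input levels, although no test of it was made. Of the transcripts between the quartiles of their input level (3.92 to 15.5 CPM), 12 of 62 fell (19.4%), against 4.67% of the 3236 other genes in that range, and 2 rose (3.23% against 9.39%).

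**Figure D1:**
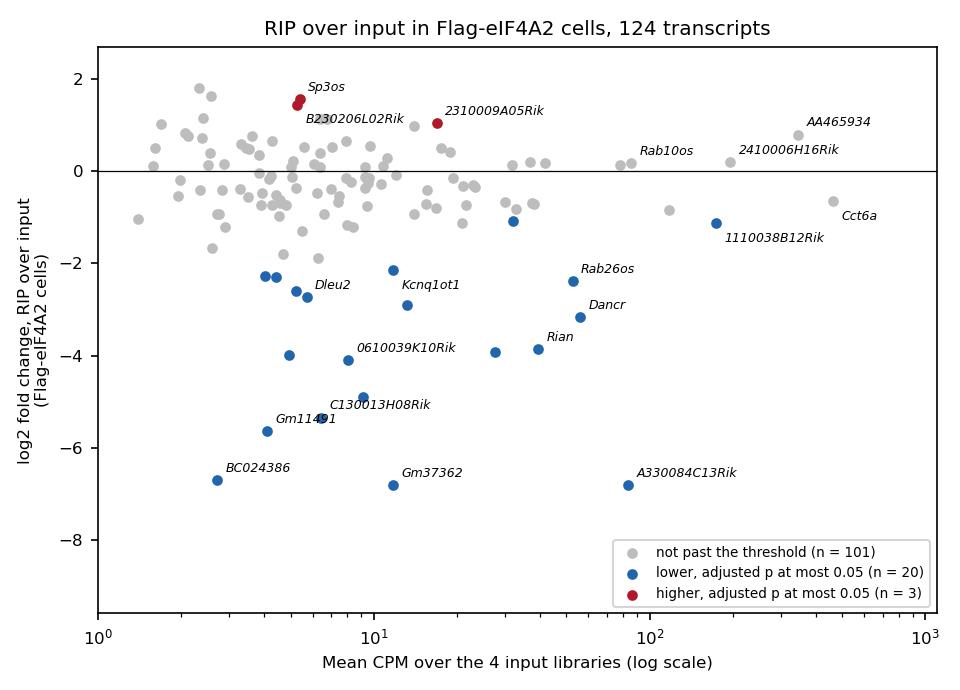
Log2 fold change of RIP Eif4a2flag over Input Eif4a2flag (vertical axis, edgeR with TMM) against the mean CPM over the 4 inputs (horizontal axis, log scale) for the 124 antisense and processed transcripts, 1 point each. The 20 transcripts that fell (blue) lie across the range of input levels, the 3 that rose (red) lie between 1.05 and 1.57, and 101 (grey) did not pass the threshold. The value of *BC024386*, with 0 RIP reads, depends on the prior count of the fit.

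The 5 deepest falls were in 4 antisense transcripts and the processed transcript *BC024386*. *A330084C13Rik* (chromosome 18, opposite *Nedd4l*) had 38.3 and 76.8 CPM in Input Eif4a2flag and 0.625 and 0.601 CPM in RIP Eif4a2flag. The RIP libraries lay far below the inputs. The log2 fold change was −6.81 ± 0.48 (SE), at an adjusted p of 0.000103 in edgeR's test, and in RIP EV the transcript had 0 reads in both libraries. *Gm37362* (chromosome 1, 161030582 to 161031456, plus strand) had 64 reads over the inputs and 1 read over the RIP libraries. The pooled ratio of input to RIP was 125-fold (exact 95% interval 21.6 to 5013, counting error only; adjusted p = 0.00241 in edgeR's test). *Gm11491*, opposite *Ska2*, had 29 reads in the inputs and 1 in the RIP, a ratio of 56.6 (9.39 to 2313, adjusted p = 0.00836 in edgeR's test). *C130013H08Rik*, opposite the arginine methyltransferase gene *Prmt6*, had 56 reads in the inputs and 3 in the RIP, a ratio of 36.5 (11.9 to 182, adjusted p = 0.00508 in edgeR's test). *BC024386* had 15 reads in the inputs and 0 in the RIP libraries, so that, at a floor of 3 reads over the group, it lay at least 9.88-fold lower there (adjusted p = 0.0135 in edgeR's test). The last 3 of these were at or below 5.30 CPM in each Eif4a2flag input, so that few reads set their values.

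**Figure D2:**
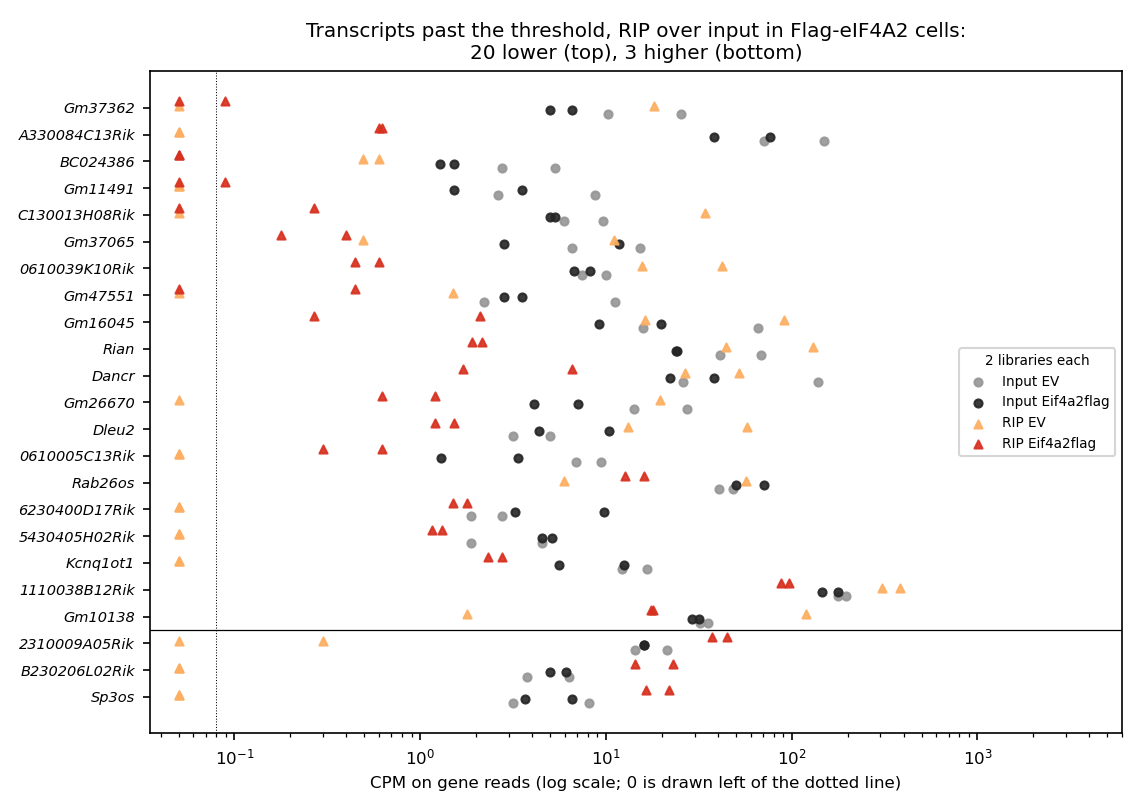
CPM on gene reads (horizontal axis, log scale) in each of the 8 libraries for the 20 transcripts that fell (upper part) and the 3 that rose (lower part) in RIP Eif4a2flag over Input Eif4a2flag, with 2 points per group. In each of the 23 transcripts the red RIP Eif4a2flag points lie on 1 side of the black Input Eif4a2flag points, while the orange RIP EV points are often at 0 or above the inputs.

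Of a list of 28 characterised RNAs, 9 met the rule, and 4 of these fell, whereas 8.46% of all genes tested fell. *Rian*, the imprinted transcript downstream of *Meg3* that hosts snoRNAs and miRNAs, had 23.8 and 24.1 CPM in Input Eif4a2flag and 2.14 and 1.90 CPM in RIP Eif4a2flag. Its replicates were close, and its log2 fold change was −3.86 (SE 0.38; edgeR adjusted p = 0.000692). *Kcnq1ot1*, the antisense RNA that silences imprinted genes on chromosome 7, had 12.6 and 5.62 CPM in the input and 2.77 and 2.31 CPM in the RIP, a log2 fold change of −2.14 (SE 0.53; edgeR adjusted p = 0.0252). *Dleu2*, the host of *Mir15a* and *Mir16-1*, had 10.4 and 4.34 CPM in the input and 1.52 and 1.20 CPM in the RIP (−2.73, SE 0.59, edgeR adjusted p = 0.016). *Dancr*, known to restrain differentiation of progenitor cells and host of *Snora26*, had 38.3 and 22.2 CPM in the input and 6.60 and 1.70 CPM in the RIP (−3.17, SE 0.57, edgeR adjusted p = 0.00788). In all 4 the RIP libraries lay below both inputs without overlap, as did 18.7% of all genes.

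The other RNAs of that list that met the rule did not pass the threshold. *Tsix* had 8.01 and 5.78 CPM in Input Eif4a2flag and 2.59 and 4.31 CPM in RIP Eif4a2flag (log2 fold change −1.30, adjusted p = 0.0982 in edgeR's test). *Nespas*, an imprinted antisense RNA at *Gnas* that RefSeq names *Gnasas1*, had 3.25 and 2.41 CPM against 1.52 and 2.00 CPM (−0.98, adjusted p = 0.254 in edgeR's test). *Firre*, an X-linked RNA that stays in the nucleus, had 14.1 and 14.3 CPM in the input and 16.8 and 21.1 CPM in the RIP, with an adjusted p of 0.834 in edgeR's test. *Tug1* had 2.60 and 3.37 CPM against 5.35 and 5.21 CPM (adjusted p = 0.482 in edgeR's test), and *Panct2* had 9.74 and 12.2 CPM against 8.57 and 8.52 CPM (adjusted p = 0.232 in edgeR's test). The 9 listed RNAs thus ranged from a fall of *Rian* to values of *Tug1* and *Firre* that lay above the input by CPM, as did 45.8% of all genes. Characterised RNAs outside the list are not part of this range.

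The 3 transcripts that rose were not among the most abundant. *Sp3os* (chromosome 2, 72979424 to 72988677, plus strand), which is antisense to the transcription factor gene *Sp3*, had 3.68 and 6.59 CPM in Input Eif4a2flag and 21.8 and 16.3 CPM in RIP Eif4a2flag. Its log2 fold change was 1.57 (SE 0.40; edgeR adjusted p = 0.028). *B230206L02Rik* had 4.98 and 6.10 CPM in the input and 14.4 and 23.0 CPM in the RIP (1.45, SE 0.41, edgeR adjusted p = 0.0381). *2310009A05Rik*, the gene that RefSeq lists as coding for Pigbos1, had 16.01 and 16.06 CPM in the input and 37.1 and 44.9 CPM in the RIP (1.05, SE 0.30, edgeR adjusted p = 0.0388). All 3 were at or near 0 in RIP EV, with 0 reads for *Sp3os* and *B230206L02Rik* and 1 read for *2310009A05Rik*. Larger fitted differences that missed the threshold were those of *Ptprv* (log2 fold change 1.81), with 1.51 and 3.21 CPM in the input and 17.1 and 3.91 CPM in the RIP, and *Frs3os* (1.64), with 1.51 and 1.45 CPM against 6.51 and 4.91 CPM, at an adjusted p of 0.102 and 0.0594 in edgeR's test.

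Of the 12 most abundant transcripts (6 of each gene type), 4 fell and 8 did not pass the threshold, whereas 8.46% of all genes tested fell. *Cct6a* had 429 and 306 CPM in RIP Eif4a2flag (log2 fold change over input −0.65, adjusted p = 0.13 in edgeR's test), *AA465934* 405 and 562 CPM (0.80, adjusted p = 0.0869), *2410006H16Rik* 314 and 252 CPM (0.21, adjusted p = 0.633), and *Rab10os* 109 and 132 CPM (0.18, adjusted p = 0.708). *1110038B12Rik* fell from 145 and 178 CPM to 96.6 and 87.2 CPM (−1.12, SE 0.26, edgeR adjusted p = 0.0207). *Rab26os* fell from 50.2 and 71.3 CPM to 16.1 and 12.6 CPM (−2.38, SE 0.30, edgeR adjusted p = 0.00241). *Gm10138*, which RefSeq lists as a pseudogene, fell from 29.0 and 31.6 CPM to 18.0 and 17.5 CPM (−1.07, adjusted p = 0.0325 in edgeR's test). *2010204K13Rik*, *Tmem134*, *Gm14820*, and *Gm11837* did not pass the threshold, with log2 fold changes of −0.84, 0.15, −0.70, and −0.82. The remaining 8 transcripts that fell were *Gm37065*, *0610039K10Rik*, *Gm47551*, *Gm16045*, *Gm26670*, *0610005C13Rik*, *6230400D17Rik*, and *5430405H02Rik*, with log2 fold changes from −4.90 to −2.27.

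LincRNAs and snoRNA host genes also had medians below 0. Of 116 lincRNAs 28 fell and 1 rose (24.1% and 0.862%, median −0.59), of 15 snoRNA host genes 3 fell and 0 rose (median −0.51), and of 10086 protein-coding genes 675 fell and 900 rose (6.69% and 8.92%, median 0.06). The antisense and processed transcripts lay between lincRNAs and mRNAs in median and in the share that fell. No test of these differences was made. The 11 transcripts that RefSeq lists as protein-coding had a median of −0.37, with 0 that fell and 1 that rose, and the 113 others a median of −0.37, with 20 that fell and 2 that rose. The split by RefSeq was made after the values were seen.

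**Figure D3:**
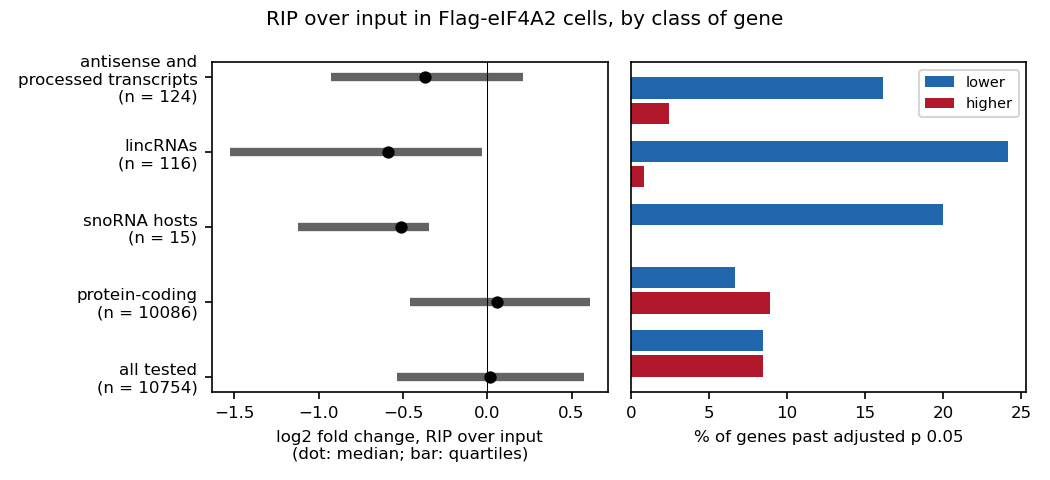
Left, median (dot) and quartiles (bar) of the log2 fold change of RIP Eif4a2flag over Input Eif4a2flag by class of gene. Right, the percent of genes in each class that fell (blue) or rose (red) at an adjusted p of at most 0.05, where 16.1% and 2.42% of the 124 antisense and processed transcripts stand against 6.69% and 8.92% of protein-coding genes.

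Features of the genes that the rule did not use differed among the members, of which 16.1% fell, against 8.46% of all genes tested. An snoRNA or miRNA gene lay inside 11 of the 124, and 5 of these fell (*Rian*, *Dleu2*, *Dancr*, *Rab26os*, and *1110038B12Rik*) and 0 rose, with a median of −0.69, against 15 that fell of the 113 others (median −0.30). These 11 were also more abundant, with a median of 52.6 CPM in the inputs against 6.21 CPM. Of 42 genes with at most 2 exons 10 fell (median −0.52), and of 82 with 3 or more exons 10 fell (median −0.30). A run of at least 12 A in the longest annotated transcript, as in the sequences above, was found in 9 of the 20 that fell, in 13 of the 101 that did not pass the threshold, and in 0 of the 3 that rose. Over all genes tested, such runs stood in 11.9% of those that fell, 11.5% of those that did not pass, and 12.6% of those that rose, so that the difference among the members was not seen across all genes. AATAAA stood in the last 50 bases in 13 of the 20 that fell, 78 of 101, and 3 of 3, against 62.2%, 76.6%, and 81.7% over all genes tested. Both motifs were sought on the strand of the transcript. The longest transcripts of the 20 had a median of 2174 bases, those of the 101 of 1865 bases, and those of the 3 of 695 bases. Gene counts do not show where in a transcript the tags lie, and the part of these features in the falls was not tested.

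Sense partners were compared with the antisense side of each locus. A protein-coding gene on the other strand overlapped 89 of the 124 genes, and for 66 this partner was expressed, with exons that share bases in 54 pairs. The 89 had a median log2 fold change of −0.41 with 16 that fell, and the 35 without such a neighbour a median of 0.12 with 4 that fell. In the 66 pairs the median was −0.44 for the transcripts and 0.01 for their partners, and the transcript lay below its partner in 49 pairs. Of the transcripts in pairs 12 fell and 2 rose, and of the partners 6 fell and 4 rose. Of all genes tested, 8.46% fell and 8.44% rose. Both members fell in 2 pairs, *C130013H08Rik* with *Prmt6* (−0.97) and *0610039K10Rik* with *Serinc3* (−1.03), and in 0 pairs did both rise. *A330084C13Rik* fell while *Nedd4l*, a ubiquitin ligase gene, had a log2 fold change of 0.36 that did not pass the threshold. *Rab10os* had a log2 fold change of 0.18 that did not pass, while *Rab10*, a small GTPase gene, fell by 1.22 on the log2 scale. Across the 66 pairs the values were hardly related (Pearson's r = 0.08, Spearman's rho = 0.11, a description across genes of the same libraries).

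**Figure D4:**
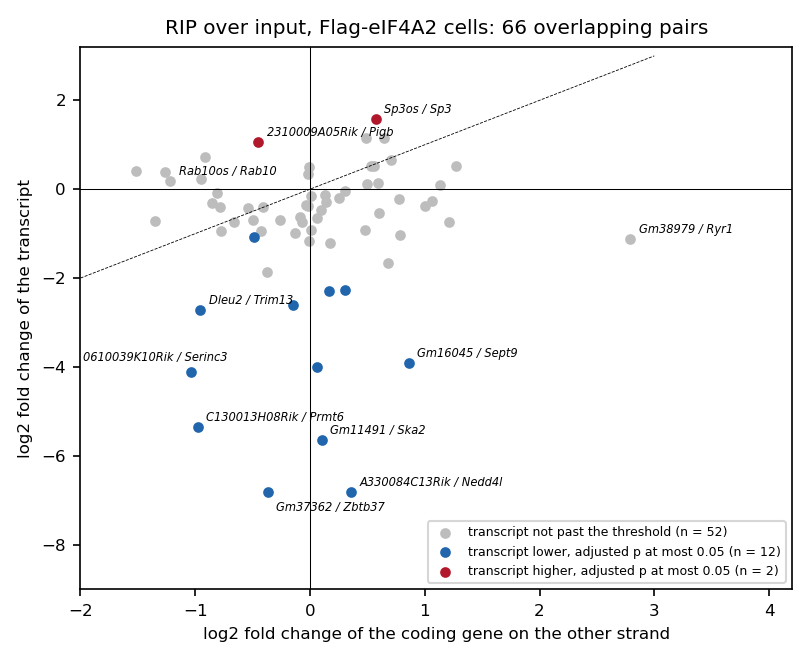
Log2 fold change of RIP Eif4a2flag over Input Eif4a2flag for 66 transcripts (vertical axis) and for the expressed protein-coding gene that overlaps each on the other strand (horizontal axis), with equality dashed. The 12 transcripts that fell (blue) spread far down the vertical axis, while their partners stay between −1.03 and 0.86.

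Because the strand setting of the counting is not given in the sources used here, reads of a transcript and of its partner cannot be told apart with certainty. In *4930566F21Rik* all exonic bases lie under exons of the other strand, and in *A630072M18Rik* and *A930015D03Rik* at least 90% do. These 3 had means of 23.3, 6.21, and 1.62 CPM in the inputs, while ambiguous reads made up 0.366% to 0.759% of each library.

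The RIP of EV cells, which hold no Flag-tagged protein, gives the background of the procedure. Many of the transcripts were not seen in it. Of 124, 51 (41.1%) had 0 reads in both RIP EV libraries, against 18.2% of all expressed genes, 43 had reads in 1 of them, and 30 in both. Low input levels went with this, since 29 of the 42 transcripts lowest in the inputs (up to 4.56 CPM), 16 of the next 40, and 6 of the highest 42 were at 0. Among other expressed genes between the quartiles of the transcripts' input level (3.92 to 15.5 CPM), 32.4% were at 0 in both, against 41.9% of the transcripts in that range. In RIP Eif4a2flag 119 transcripts had reads in both libraries. Those libraries held 11206420 and 9976801 reads on genes, against 2044853 and 3345151 in RIP EV. The part of depth and of reads outside genes in these zeros was not tested.

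**Figure D5:**
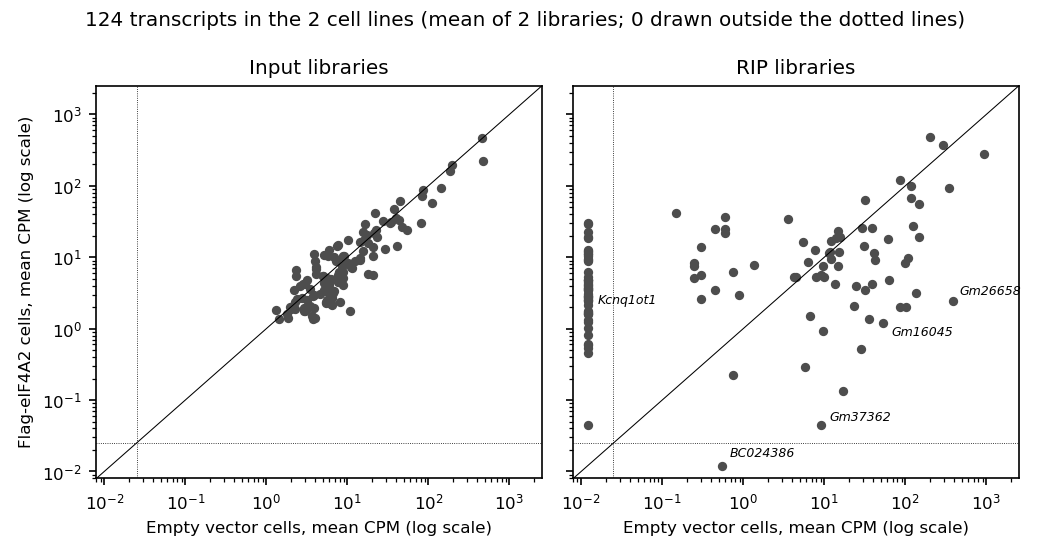
Mean CPM of 2 libraries in EV cells (horizontal axis) and Flag-eIF4A2 cells (vertical axis) for the 124 transcripts in the inputs (left) and in the RIPs (right), on log scales with the line of equality. The inputs lie along the line, while in the RIPs 51 transcripts sit at 0 in EV and others, such as *Gm26658*, lie far to its right.

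Against RIP EV, 0 of 124 transcripts passed the adjusted threshold in either direction in edgeR's test on the 4 RIP libraries (0.0% of all genes in either direction), with a lowest adjusted p of 0.065. At an unadjusted p under 0.05, 56 were higher and 13 lower in RIP Eif4a2flag, among 2578 and 571 of all genes. DESeq2 on these libraries put 8 higher and 13 lower past its adjusted threshold (7.75% and 4.96% of all genes). In edgeR on all 8 libraries, 56 rose and 17 fell (24.8% and 5.46% of all genes), and 46 of those 56 had 0 reads in both RIP EV libraries. In the fit on the 4 RIP libraries, the median log2 fold change was 2.61 for the transcripts and 0.67 for all genes. Of these, 51 transcripts and 1961 of all genes were at 0 in both RIP EV libraries. With those at their lower bounds, the medians were 0.96 and 0.64. The order of the fitted medians turned with a limit of 2 CPM in the inputs. There they were 0.40 for the 90 transcripts left and 0.51 for all genes. By CPM, 70 transcripts were above and 20 below RIP EV with no overlap of the libraries, against 51.9% and 12.1% of all genes. Leaving out RIP EV replicate 1 gave 57 higher and 31 lower (46.0% and 25%, against 43.8% and 21.6% of all genes), and leaving out RIP EV replicate 2 gave 70 and 29 (56.5% and 23.4%, against 59.0% and 18.6%), so that the transcripts were near the background in both. Leaving out either RIP Eif4a2flag library gave 0 and 1. The comparison shares the RIP Eif4a2flag libraries with that against input.

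Transcripts with the largest differences over RIP EV were at 0 there. *D130058E05Rik*, which overlaps the homeobox gene *Gbx2*, had 37.7 and 22.2 CPM in RIP Eif4a2flag and was at least 53.7-fold higher than the floor of 0.557 CPM, which is 3 reads over both RIP EV libraries. *2810001G20Rik* had 33.9 and 25.4 CPM (at least 53.2-fold) and *Gm13110* 30.8 and 14.1 CPM (at least 40.4-fold). For *Sp3os* and *B230206L02Rik*, which also rose over input, the bounds were 34.2-fold and 33.5-fold. *Hotairm1*, antisense in the HOXA cluster, and *Gt(ROSA)26Sor*, the transcript of the locus used for transgenes, were at 0 in RIP EV as well (at least 21.0-fold and 9.53-fold higher; named after their values were seen). *Kcnq1ot1* and *Nespas* were at 0 in RIP EV too, although they lay below the input in RIP Eif4a2flag, with bounds of 4.56-fold and 3.16-fold. The adjusted p of these 9 was 0.065 to 0.0691 in edgeR's test on the 4 RIP libraries and 0.0066 to 0.0177 in that on all 8.

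Other transcripts lay higher in RIP EV than in RIP Eif4a2flag, and some of them above the inputs too. *Gm26658* (chromosome 18) had 652 and 132 CPM in RIP EV, while its EV inputs held 9.77 and 2.81 CPM. In Eif4a2flag cells it had 3.25 and 1.12 CPM in the inputs, then 0.268 and 4.61 CPM in the RIP. *B130046B21Rik*, opposite the kinase subunit gene *Prkag1*, had 119 and 155 CPM in RIP EV against 1.24 to 4.98 CPM in the other libraries. *Gm45774*, opposite the metallothionein gene *Mt2*, had 130 and 76.2 CPM in RIP EV against 1.45 to 10.7 CPM in the others. These 3 passed the threshold against RIP EV in DESeq2 (adjusted p = 2.6e-06, 4.9e-11, and 5.4e-11) and not in edgeR's test on the 4 RIP libraries (adjusted p = 0.0832, 0.065, and 0.065). *0610039K10Rik*, opposite *Serinc3*, had 42.1 and 15.5 CPM in RIP EV against 0.446 and 0.601 CPM in RIP Eif4a2flag (log2 fold change −5.94), and *Gm16045*, in the *Sept9* locus, had 91.0 and 16.1 CPM against 0.268 and 2.10 CPM (−5.67), with an adjusted p of 0.065 and 0.143 in edgeR's test. The RIP EV libraries of *Gm16045* overlapped its inputs, which had 15.8 and 65.5 CPM in EV cells and 19.7 and 9.16 CPM in Eif4a2flag cells. Both also lay below the input in RIP Eif4a2flag.

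Host genes of small RNAs lay on both sides. Of the 11 transcripts with an snoRNA or miRNA gene inside, 7 were lower in RIP Eif4a2flag than in RIP EV by CPM without overlap, 3 were higher, and 1 overlapped. Of all genes, 12.1% lay below and 51.9% above in this comparison. The 3 were *Cct6a*, with 300.3 and 282 CPM in RIP EV against 429 and 306 CPM, *AA465934*, with 100.2 and 301 CPM against 405 and 562 CPM, and *Zswim6*, with 0 reads in RIP EV. *2410006H16Rik* had 778 and 1103 CPM in RIP EV against 314 and 252 CPM in RIP Eif4a2flag (log2 fold change −1.97), and *1110038B12Rik* had 384 and 307 CPM against 96.6 and 87.2 CPM (−2.14), with an adjusted p of 0.065 for both in edgeR's test on the 4 RIP libraries. *Rian* had 130 and 44.2 CPM in RIP EV, *Dleu2* 57.7 and 13.2 CPM, and *Dancr* 51.8 and 26.6 CPM, each above both RIP Eif4a2flag libraries, while the RIP EV values of *Rian* and *Dancr* overlapped their EV inputs. *Tsix* had 20.5 and 43.3 CPM in RIP EV, above all inputs. *Zswim6* was the 1 of the 11 at 0 in both RIP EV libraries.

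The change from input to RIP in EV cells, measured in the same way, passed the threshold for 0 of the 124 transcripts in either direction (0.0% of all genes; lowest adjusted p = 0.0719 in edgeR's test). At an unadjusted p under 0.05, 6 were higher and 62 lower in RIP EV, among 460 and 2715 of all genes, DESeq2 put 6 higher and 4 lower past its threshold (2.97% and 4.68% of all genes), and edgeR on all 8 libraries 8 higher and 65 lower (4.5% and 26.3% of all genes). Tested as an interaction over all 8 libraries, the change from input to RIP in Eif4a2flag cells minus that in EV cells was past the threshold upwards for 48 transcripts (19.2% of all genes), of which 41 had 0 reads in both RIP EV libraries, and downwards for 9 (2.1% of all genes). The 9 were *0610039K10Rik*, *Rian*, *Dleu2*, *Tsix*, *1110038B12Rik*, *B130046B21Rik*, *Brip1os*, *Trerf1*, and *2410006H16Rik*, and 4 of them host snoRNAs or miRNAs. *Rian* had a difference of −4.55 (SE 0.96; edgeR adjusted p = 0.0203) and *Dleu2* of −5.87 (SE 1.40; edgeR adjusted p = 0.0285). These counts became 0 and 0 without Input EV replicate 1, without either Input Eif4a2flag library, or without either RIP Eif4a2flag library, and 31 and 2 without Input EV replicate 2 (12.2% and 0.651% of all genes). They became 62 and 24 when RIP EV replicate 1 was left out (50% and 19.4%, against 35.9% and 11.8% of all genes), and 71 and 22 when replicate 2 was (57.3% and 17.7%, against 54.0% and 12.4%).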

How the data were processed

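The deposited values were raw counts per gene. According to the study's methods, the authors trimmed QuantSeq 3′ reads, mapped them to mm10 with STAR 2.5.3a, and counted them with HTSeq-count 0.11.2. Neither the release of the gene annotation nor the use of strand was stated there. All 8 libraries were used. Of 52550 gene identifiers, 52403 matched GENCODE vM21, which gave types, names, and positions. The summary lines of HTSeq-count (no feature, not unique, ambiguous) stayed out of totals and tests.

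Each comparison was fitted with edgeR 4.0.16 (R 4.3.3; TMM, quasi-likelihood) on its 4 libraries and on all genes with CPM of at least 1 in the 4 inputs, with Benjamini-Hochberg adjustment and a threshold of 0.05. A fit on all 8 libraries was an alternative and not the main one, because the spread of RIP EV far exceeded that of the other groups; only the interaction used all 8. The code was tested on simulated counts. Alternatives were DESeq2 1.42.0, other scalings and filters, a replicate block, and leaving out each library.

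Libraries with the same replicate number shared hardly any deviation (correlations −0.0694 to 0.116), so the main fits used no pairing. That does not show that the libraries were unpaired. Named were the 6 most abundant transcripts of each type, the 5 largest rises and falls over input, 3 rises and 5 falls against RIP EV among transcripts with at least 10 RIP reads, members of a list of 28 characterised RNAs, and those next to the CPM limit; where too few passed the test, the largest differences without overlap of the groups followed. Members, lists, and rules were chosen with earlier results of these data known. Intervals and floors (3 reads) cover counting error only.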

Additional observations from a re-analysis of the deposited data

Results flagged for a closer look

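For 17 named transcripts the change from input to RIP differed between Flag-eIF4A2 and EV cells in edgeR's interaction test. The difference (log2, Flag-eIF4A2 minus EV) was below 0 for *2410006H16Rik* (−2.07), *1110038B12Rik* (−2.01), *0610039K10Rik* (−5.82), *B130046B21Rik* (−6.43), *Tsix* (−4.20), *Rian* (−4.55), and *Dleu2* (−5.87). It was above 0 for *Sp3os* (9.75), *B230206L02Rik* (9.53), *2310009A05Rik* (7.61), *Ptprv* (8.72), *Frs3os* (4.95), *D130058E05Rik* (9.48), *2810001G20Rik* (10.64), *Gm13110* (8.95), *Kcnq1ot1* (7.41), and *Nespas* (7.36). All values of this second group except those of *2310009A05Rik* and *Frs3os* were fitted against 0 reads in both RIP EV libraries and depend on the prior count. *2310009A05Rik* had 1 read and *Frs3os* 2 reads over both RIP EV libraries. No value of this second group is thus a measure of size. Over the 124 transcripts, 48 differences were past the threshold upwards and 9 downwards (19.2% and 2.1% of all genes). These calls did not hold when any of 5 libraries was left out.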

How the results depend on the processing

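For RIP Eif4a2flag over its input (3 of the 124 transcripts higher and 20 lower), library size alone gave 7 higher, edgeR on all 8 libraries 0 and 0, and DESeq2 on all 8 libraries 0 and 13. In edgeR on 8 libraries without Input EV replicate 1 or 2, the median log2 fold change was −0.37 for the transcripts and 0.02 for all genes. Without RIP EV replicate 1 or 2 it was −0.37 and −0.33 for the transcripts, against 0.02 and 0.06. Against RIP EV (0 and 0), DESeq2 gave 8 higher and 13 lower, edgeR on all 8 libraries 56 and 17, DESeq2 on all 8 libraries 57 and 21, and edgeR on 8 libraries without Input EV replicate 1 or 2, or Input Eif4a2flag replicate 1 or 2, 51, 52, 50, and 49 higher and 11 lower each time. For RIP EV over its input (0 and 0), DESeq2 gave 6 higher and 4 lower, edgeR on all 8 libraries 8 and 65, DESeq2 on all 8 libraries 13 and 67, and edgeR on 8 libraries without 1 Eif4a2flag library 5 higher and 61, 60, 63, or 63 lower. Between inputs (0 and 0), DESeq2 and no filter each gave 1 lower. Of all genes, DESeq2 on all 8 libraries put 2.55% higher and 4.0% lower over input. Against RIP EV it put 30.4% higher and 10.5% lower, and in RIP EV over input 10.0% and 32.0%. EdgeR on all 8 libraries put 24.8% and 5.46% of all genes past the threshold against RIP EV. In RIP EV over input these shares were 4.5% and 26.3%. The DESeq2 fits on all 8 libraries and the edgeR fits without a library outside the comparison were chosen after seeing the data. Hardly any deviation was shared by libraries with the same replicate number. With the replicate block, 2 transcripts were higher and 18 lower over input, 0 and 4 against RIP EV, 3 and 1 in RIP EV over input, 0 and 2 between inputs, and 39 and 5 in the interaction. The shares of all genes, in the same order, were 6.96% and 6.5%, 1.95% and 1.59%, 1.43% and 2.53%, 0.363% and 0.205%, and 14.9% and 1.25%. Leaving out 1 library of a comparison at a time gave 1 to 3 higher and 12 to 22 lower over input, 0 to 70 and 1 to 31 against RIP EV, 1 to 22 and 0 to 91 in RIP EV over input, 0 and 0 to 4 between inputs, and 0 to 71 and 0 to 24 in the interaction. The cause of these shifts was not tested. Of the values for single transcripts under these settings, 236 kept their side of the threshold, 65 fell short of it, 49 passed it, and 0 changed sign. With 2 libraries a group and RIP EV totals as low as 2044853 reads, few reads set the values of rare transcripts.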
